A study of Mus musculus with 6 samples.

Results

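Organic anion and cation transporters are membrane carriers that bring bile acids, hormones, drugs and other charged molecules into cells. The 8 genes described here are the organic anion transporting polypeptides Slco1a1, Slco1a4, Slco1b2, Slco2a1, Slco2b1 and Slco3a1 and the SLC22 carriers Slc22a5 and Slc22a7. They were taken by symbol from the authors' table of 23415 genes, of which the authors tested 11515. All 8 were found and all 8 were among the tested genes, and no further cut on low values was made here. The series compares livers of 3 knockout mice with livers of 3 wildtype mice, all of the C57BL/6 strain. The knockout mice lack alkaline sphingomyelinase, an enzyme encoded by Enpp7 that cuts sphingomyelin in the gut. The libraries carry only a K or a W before an animal number, which was read as knockout or wildtype. The labels give no age, sex, diet or allele, and the sample labels name liver where the design text names intestine.

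In hepatocytes the SLCO carriers sit mostly on the membrane facing the blood and take up large amphipathic anions, among them bile acids, steroid conjugates and thyroid hormones. The SLC22 family holds smaller-substrate carriers of organic anions, organic cations and zwitterions such as carnitine. Several hepatic members are known in mice to differ between the sexes and to respond to xenobiotic-sensing nuclear receptors. Expression is given in FPKM, fragments scaled for transcript length and depth, so levels can be set side by side between genes. Each group has 1 deposited value for its 3 livers, so no spread between mice can be given and p-values rest on the authors' model. Ratios are log2 of knockout over wildtype with the standard error (SE) that the authors' z statistic implies. A pair of values joined by ± in parentheses is such a ratio and its SE. Rose and fell are used of genes to which the authors' deposited table gives a q below 0.05.

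The tissue and the groups were checked first. Enpp7 was listed at 0.141 FPKM in knockout livers and 0.0541 FPKM in wildtype livers and was not tested, which leaves the genotype labels unchecked at this level. The 12 hepatocyte markers had a median of 900.2 FPKM in knockout livers and 912 FPKM in wildtype livers. These medians include Alb, listed at 0 in both as 1 of the genes the authors' program set aside. That 0 is not a measured level, so both medians are too low and give no order of the groups. The 8 kidney tubule markers did not exceed 0.0551 FPKM in knockout livers and 0.0582 FPKM in wildtype livers. Of 12 intestinal markers, 7 stayed under 1 FPKM in both groups, and 0 of the 6 tested passed. The smallest p belonged to Tff3 (mucosal repair), with 48.8 FPKM in knockout livers against 23.9 FPKM in wildtype livers (q = 0.0775 in the authors' deposited table). Fabp2 (lipid binding) was at 42.9 FPKM in knockout and 54.7 FPKM in wildtype livers, and Anpep (a peptidase) at 40.1 FPKM in knockout and 41.6 FPKM in wildtype livers. Slc10a2 was at 8.64 FPKM in knockout and 8.20 FPKM in wildtype livers, and Fabp6 at 1.97 FPKM in knockout and 0.280 FPKM in wildtype livers. The 7 under 1 FPKM were Vil1, Cdx1, Cdx2, Lct, Sis, Alpi and Muc2. Vil1 was the highest of these, at 0.738 FPKM in knockout and 0.443 FPKM in wildtype livers. The 4 Y-linked genes Ddx3y, Eif2s3y, Kdm5d and Uty ranged between 1.62 and 20.7 FPKM in knockout livers and between 1.56 and 22.7 FPKM in wildtype livers, while Xist was listed at 0.00337 FPKM in knockout livers and 0.0491 FPKM in wildtype livers.

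Among the 8 transporters Slco1a4 fell in the knockout livers and the other 7 did not pass the test. That is 1 lower and 0 higher of 8, or 12.5% of the members, where 1.08% of all 11515 tested genes were called, 0.504% lower and 0.573% higher. The median log2 ratio of the 8 was -0.23, against 0.00 (-0.0012) over all tested genes, and it was also -0.23 (-0.225) without Slco1a4. The ratios of 6 members were below 0 and those of 2 above 0. Only 1 member, Slco1a4, had an unadjusted p under 0.05, a mark that 5.29% of tested genes passed. The authors' short list of 95 genes, all with a log2 ratio of at least 1 in size, holds 1 of the 8, again Slco1a4.

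**Figure D1:**
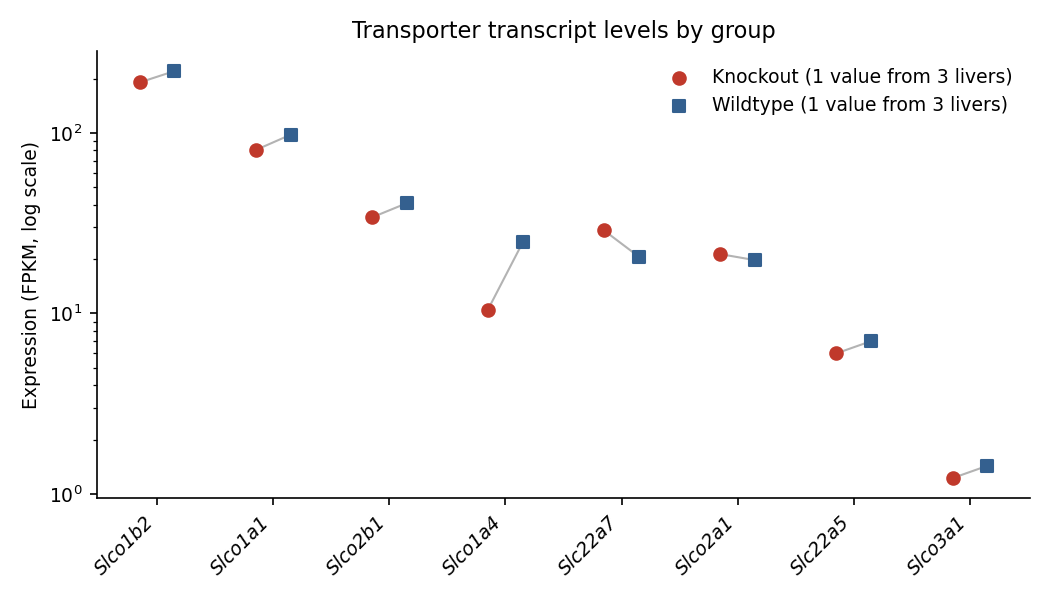
FPKM of the 8 transporters on a log axis, with knockout as red circles on the left and wildtype as blue squares on the right of each pair; each symbol is the authors' single value for 3 livers, so there are no error bars. Slco1b2 stands highest at 190.2 FPKM in knockout and 220 FPKM in wildtype livers, Slco3a1 lowest at 1.22 FPKM in knockout and 1.43 FPKM in wildtype livers, and Slco1a4 has the steepest line, at 10.5 FPKM in knockout and 24.8 FPKM in wildtype livers.

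Across genes the levels spread over a wide range. In order of the wildtype value the members were Slco1b2, Slco1a1, Slco2b1, Slco1a4, Slc22a7, Slco2a1, Slc22a5 and Slco3a1. In the knockout livers Slco1a4 stood at place 6 instead of place 4, behind Slc22a7 and Slco2a1, and the other order was the same. The table holds no error for a single value, so whether neighbours in this order differ beyond their spread could not be assessed. Slco1b2 alone made up 56.4% of the summed FPKM of the 6 Slco members in knockout livers and 54.4% in wildtype livers. Slco1a4 made up 3.11% in knockout livers and 6.13% in wildtype livers. The 6 together summed to 338 FPKM in knockout livers and 404 FPKM in wildtype livers.

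Slco1a4 (chr6:141805440-141856171, mm10, minus strand) encodes a carrier of bile acids, steroid conjugates and cardiac glycosides that in mice is induced through the pregnane X receptor (PXR). It was at 10.5 FPKM in knockout livers and 24.8 FPKM in wildtype livers, so that the knockout value was 42.4% of the wildtype one. The log2 ratio was -1.24 ± 0.24 (SE), with a 95% interval of the authors' model from -1.71 to -0.77 and q = 7.71e-05 in the authors' deposited table. By p it was number 42 of the 124 called genes and number 16 of the 58 that fell. By size of the ratio it was number 20 of those 58. In the knockout livers 62.1% of tested genes lay at or below its level, against 78.7% in the wildtype livers. In bulk liver, fewer cells with the transcript and less of it per cell cannot be told apart.

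Slco1a4 lies in a cluster of related genes on chromosome 6, from Slco1c1 to Slco1a5, that spans 799 kb in the authors' table. Slco1b2 and Slco1a1 are its expressed neighbours there. Slco1a1 is the only other tested gene within 100 kb, at a gap of 51.1 kb, and Slco1b2 lies 119 kb away on the other side. The rest of the cluster was near the floor. Slco1c1, a thyroxine carrier of brain vessels, was listed at 0.0344 FPKM in knockout livers and 0.0258 FPKM in wildtype livers, and Slco1a6 at 0.0153 FPKM in knockout livers and 0.00829 FPKM in wildtype livers. Slco1a5 was listed at 0 in knockout livers and 0.0101 FPKM in wildtype livers, and the predicted gene Gm6614 at 0.0585 FPKM in knockout livers and 0.0944 FPKM in wildtype livers.

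**Figure D2:**
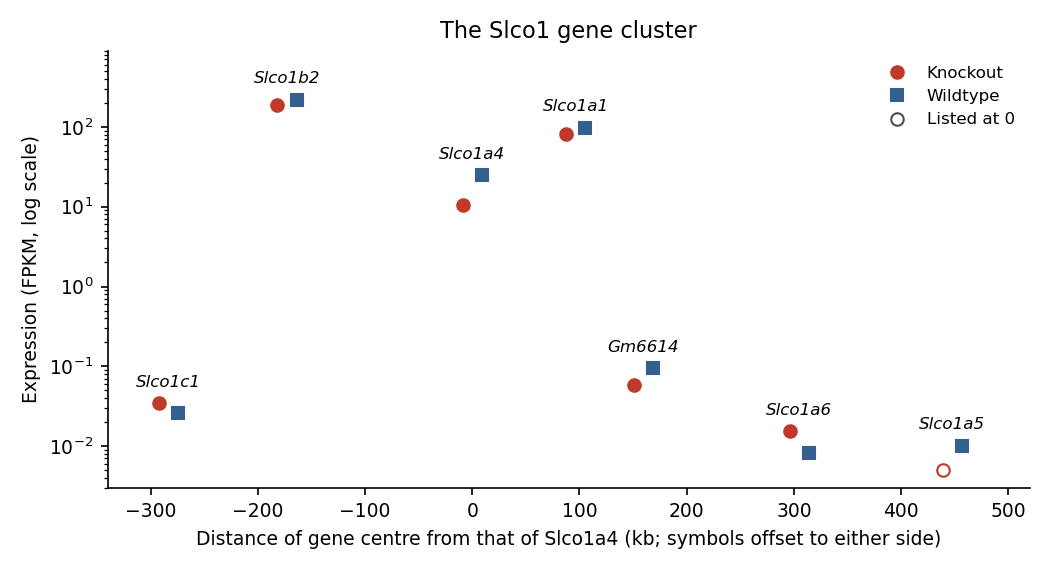
Levels of the cluster's genes (FPKM, log axis) against the distance of each gene's centre from that of Slco1a4 in kb, with knockout as red circles drawn left and wildtype as blue squares drawn right of the true place; an open symbol stands for a value listed at 0 and is drawn at the foot of the axis. Slco1b2, Slco1a4 and Slco1a1 stand between 10.5 and 220 FPKM, and every other gene of the cluster under 0.1 FPKM.

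The Slco1a genes are close copies, which bears on how their reads can be told apart. The proteins of Slco1a4 and Slco1a1 are identical at 539 of 670 aligned residues (80.4%), and those of Slco1a4 and Slco1a5 at 84.3%, while Slco1b2 shares 40.8% with Slco1a4. The coding sequences of Slco1a4 and Slco1a1 share an unbroken run of 132 bases, longer than the 50 nt reads, at coding bases 672 to 803 of both (GENCODE M21, GRCm38). It is shown because a read from it fits both genes. Capitals mark the 96 bases that both Slco1a5 and Slco1a6 hold as well.
Slco1a4 and Slco1a1: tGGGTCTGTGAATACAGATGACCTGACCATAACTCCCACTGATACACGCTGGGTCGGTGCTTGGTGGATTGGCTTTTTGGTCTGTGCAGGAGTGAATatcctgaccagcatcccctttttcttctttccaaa

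Over the whole transcript such stretches were short. Of the 50-base windows of the Slco1a4 transcript 2.73% occurred exactly in a transcript of another gene, and of Slco1a1 2.60%. The sources used here do not state how the authors' program shared out such reads. Slco1a5 and Slco1a6, the other holders of these stretches, were not above 0.0153 FPKM in either group. Slco1b2, Slco3a1 and Slc22a7 had 0 shared windows.

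The promoter table of RefSeq (GRCm38.p6) matched 6 of the 8 members; Slco3a1 and Slc22a7 have no entry. The 250 bases before the start are shown for the 3 expressed cluster genes, the one that fell and its 2 neighbours that did not pass the test. Capitals mark matches on either strand to 6 motifs, with shares given over 32817 RefSeq promoter windows of the same length. The TATA box was searched as TATAAA, which 12.4% of windows held. The half-site of HNF1, a hepatocyte factor, was searched as GTTAAT, held by 6.44%. A first half-site of nuclear receptors was AGGTCA, held by 14.0%. A further half-site of these receptors was AGTTCA, held by 11.9%. The palindrome of STAT factors was TTCNNNGAA, held by 7.01%. The E-box was searched as CACGTG, held by 6.02%. The lines run 5′ to 3′ on each gene's strand, at chr6:141856221-141856470 for Slco1a4, chr6:141946963-141947212 for Slco1a1 (both minus strand) and chr6:141629268-141629517 for Slco1b2 (plus strand).
Slco1a4: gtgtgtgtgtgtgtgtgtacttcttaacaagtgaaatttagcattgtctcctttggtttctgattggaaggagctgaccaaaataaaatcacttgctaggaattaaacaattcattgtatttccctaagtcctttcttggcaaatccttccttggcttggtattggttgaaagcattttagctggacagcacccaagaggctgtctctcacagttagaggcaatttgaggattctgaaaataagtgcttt
Slco1a1: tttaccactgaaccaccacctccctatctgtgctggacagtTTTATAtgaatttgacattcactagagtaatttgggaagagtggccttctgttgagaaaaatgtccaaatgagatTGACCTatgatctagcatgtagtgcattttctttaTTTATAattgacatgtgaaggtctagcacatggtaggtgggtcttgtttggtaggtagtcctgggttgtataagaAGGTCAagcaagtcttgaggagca
Slco1b2: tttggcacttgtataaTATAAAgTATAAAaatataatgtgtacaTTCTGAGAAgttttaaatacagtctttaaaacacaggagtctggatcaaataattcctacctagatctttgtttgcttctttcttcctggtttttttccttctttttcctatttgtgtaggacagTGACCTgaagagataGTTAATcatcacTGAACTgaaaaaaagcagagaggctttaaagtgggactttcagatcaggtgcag

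The Slco1a4 window held 0 matches, that of Slco1a1 4 and that of Slco1b2 6, and no matches overlapped. Slco1a1 had the letters TATAAA at 2 places, both on the other strand, beginning at bases -209 and -99 from the start. It had the first nuclear receptor half-site at 2 places. Slco1b2 had the letters TATAAA at 2 places, beginning at bases -234 and -227. It had the HNF1 half-site, each nuclear receptor half-site and the STAT palindrome at 1 place each. These are matches of letters, and whether they work as such sites was not tested. The absence of these letters from the Slco1a4 window says only that they are not in this window. It is counted from the RefSeq start at base 141856220, while the authors' table has the gene begin at base 141856171. The bases between these 2 starts were not searched.

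Slco1a1 (chr6:141907281-141946962, mm10, minus strand), a carrier of steroid conjugates and bile acids that is male-predominant in mouse liver, was at 80.3 FPKM in knockout livers and 97.6 FPKM in wildtype livers. Its log2 ratio of -0.28 ± 0.24 (SE; 95% interval -0.76 to 0.20) did not pass (q = 1.00 in the authors' deposited table). The level of Slco1a1 was 7.65 times that of Slco1a4 in knockout livers and 3.94 times in wildtype livers. Of 13 male-biased liver genes 1 rose and 0 fell: Elovl3, a fatty acid elongase, at 57.3 FPKM in knockout and 32.8 FPKM in wildtype livers (q = 0.0484 in the authors' deposited table). That call was lost with an equal FPKM total in both groups and after quantile normalization. Of 13 female-biased genes 12 were under 1 FPKM in both groups, and 0 of the 3 tested passed. Cyp2a4, a steroid hydroxylase, was at 0.467 FPKM in knockout livers and 1.67 FPKM in wildtype livers (-1.84 ± 0.55, with q = 0.0641 in the authors' deposited table).

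Slco1b2 (chr6:141629518-141686635, mm10, plus strand), the main liver carrier of unconjugated bile acids and of bilirubin glucuronide in mice, was at 190.2 FPKM in knockout livers and 220 FPKM in wildtype livers. Its log2 ratio was -0.21 ± 0.26 (SE; 95% interval -0.71 to 0.30) and did not pass. The log2 ratio of Slco1a4, -1.24, lies below this interval and below that of Slco1a1. The interval of Slco1a4 itself reaches up to -0.77, beside a lower end of -0.76 for Slco1a1. Whether the ratios of these genes differ from each other was not tested. The smallest log2 ratio that would have been called was 0.89 for Slco1b2 and 0.84 for Slco1a1.

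Slco2b1 (chr7:99657804-99711340, mm10, minus strand), a carrier of steroid sulfates found in liver and gut, was at 34.0 FPKM in knockout livers and 40.8 FPKM in wildtype livers. The log2 ratio was -0.26 ± 0.23 (SE; 95% interval -0.70 to 0.18) and did not pass. Of its 50-base windows 7.62% occur in transcripts of the annotated gene Gm15635, matched on either strand. The labels do not say whether strand was kept.

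Slco2a1 (chr9:103008489-103087849, mm10, plus strand), the prostaglandin transporter, clears prostaglandins from the blood and is known in endothelium. It was at 21.3 FPKM in knockout livers and 19.7 FPKM in wildtype livers, with a log2 ratio of 0.11 ± 0.22 (SE; 95% interval -0.33 to 0.55). The interval spans 0. With an equal FPKM total set for both groups, a step that lowers every ratio by the same amount, the ratio was -0.083. No direction is given. Of 9 tested sinusoidal endothelial markers 0 passed and 7 had ratios below 0, with a list median of -0.21. The smallest p was that of Ehd3, a membrane trafficking protein, at 11.0 FPKM in knockout and 15.96 FPKM in wildtype livers. In the prostaglandin list 0 of 7 tested genes passed, with a median of -0.03. Ptgds, a prostaglandin D synthase, had the smallest p there, at 2.92 FPKM in knockout and 0.796 FPKM in wildtype livers (1.87 ± 0.66, q = 0.227 in the authors' deposited table). Hpgd, which breaks prostaglandins down, was at 46.3 FPKM in knockout and 58.9 FPKM in wildtype livers.

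Slco3a1 (chr7:74275418-74554780, mm10, minus strand), a widely expressed carrier of prostaglandins and thyroxine, had the lowest level of the 8. It was at 1.22 FPKM in knockout livers and 1.43 FPKM in wildtype livers, with 13.0% of tested genes at or below it in knockout livers and 16.4% in wildtype livers. Its log2 ratio of -0.23 ± 0.45 (SE; 95% interval -1.12 to 0.66) had the widest error of the members. A log2 ratio under 1.57 in size could not have been called for it.

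**Figure D3:**
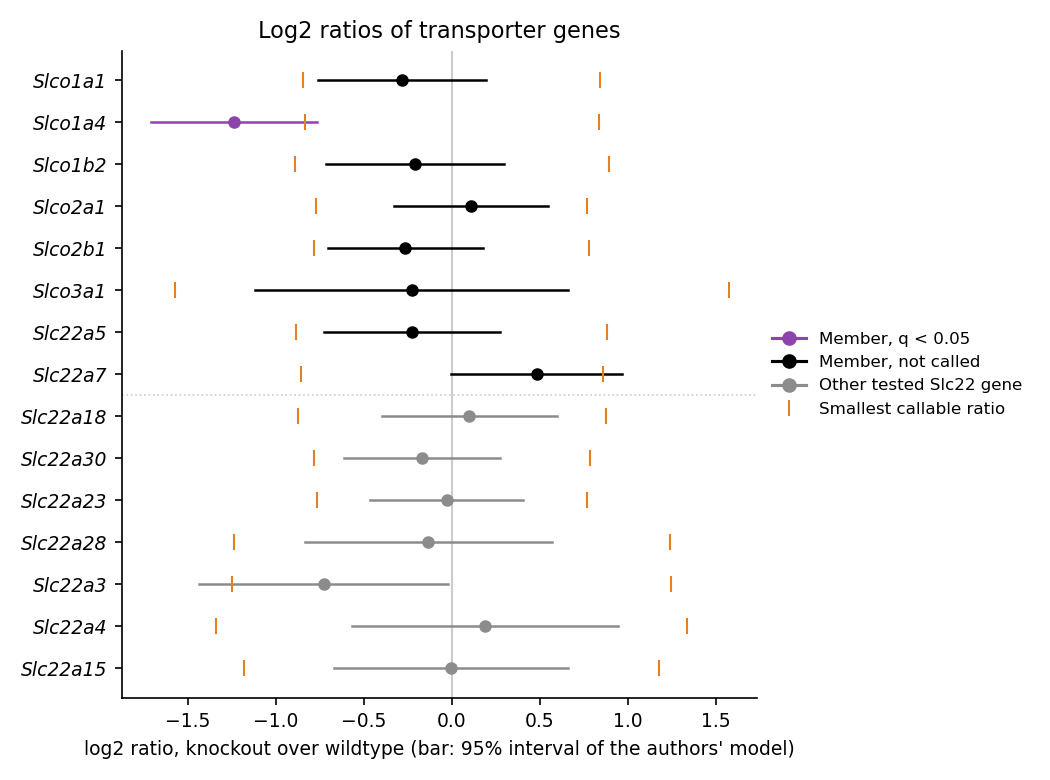
Log2 ratios of knockout over wildtype with 95% intervals of the authors' model for the 8 members, above the dotted line, and 7 other tested Slc22 genes below it; orange ticks mark the smallest ratio that would have been called for each gene. Slco1a4, at -1.24, is the only point beyond its tick.

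Slc22a7 (chr17:46432185-46438477, mm10, minus strand), an organic anion carrier of the liver cell's blood side, had the highest ratio of the 8. It was at 28.8 FPKM in knockout livers and 20.6 FPKM in wildtype livers, a log2 ratio of 0.48 ± 0.25 (SE; 95% interval -0.00147 to 0.97). It did not pass, with q = 0.957 and an unadjusted p of 0.0507 in the authors' deposited table. A log2 ratio of 0.86 would have been needed for a call.

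Slc22a5 (chr11:53864542-53891703, mm10, minus strand) encodes the high-affinity carnitine transporter, whose loss in mice and people causes carnitine deficiency. It was at 6.00 FPKM in knockout livers and 7.02 FPKM in wildtype livers, with a log2 ratio of -0.23 ± 0.25 (SE; 95% interval -0.72 to 0.27) that did not pass. Of its 50-base windows 27.1% occurred in other genes, led by its neighbours Slc22a21 and Slc22a4, so its value is uncertain where the authors' counting could split such reads. Slc22a21 was listed at 0.128 FPKM in knockout livers and 0.0947 FPKM in wildtype livers and was not tested. In the list of carnitine synthesis and use 0 of 8 genes passed, and 7 of 8 ratios were below 0, with a median of -0.19. The exception, Crot, a peroxisomal carnitine acyltransferase, was at 171 FPKM in knockout and 105 FPKM in wildtype livers (0.70 ± 0.24, q = 0.201 in the authors' deposited table). Bbox1, which makes the last step of carnitine synthesis, was at 65.1 FPKM in knockout and 72.4 FPKM in wildtype livers.

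**Figure D4:**
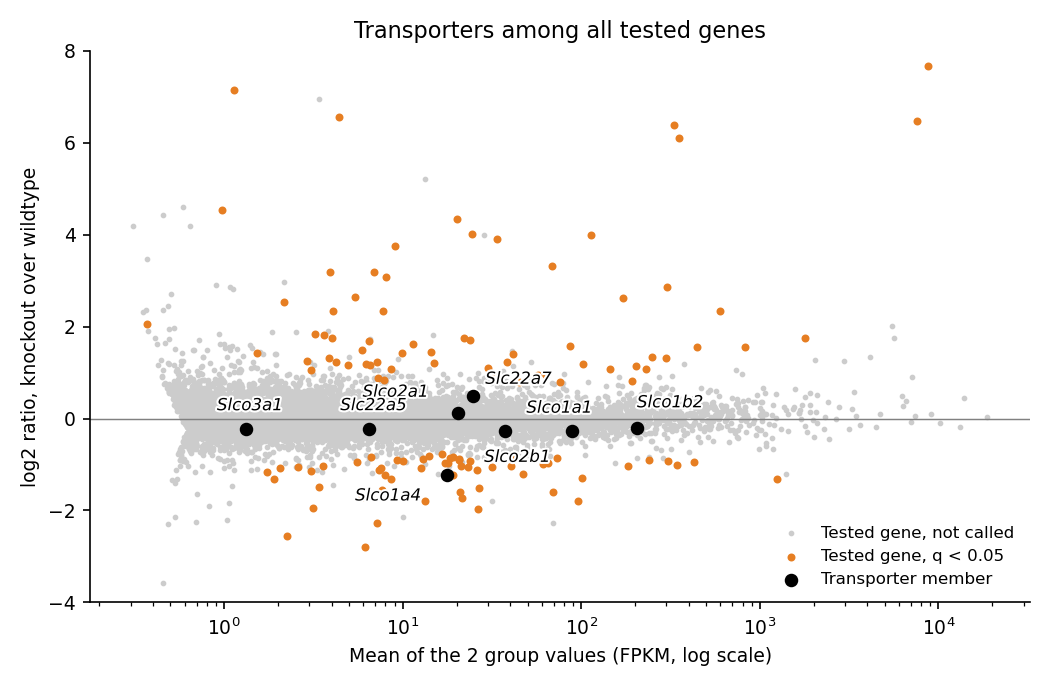
Log2 ratio of knockout over wildtype against the mean of both group values (FPKM, log axis) for all tested genes with a finite ratio; grey points were not called, orange points were called and black points are the 8 transporters. Of the black points only that of Slco1a4 lies among the called genes, at -1.24, and the other 7 lie between -0.28 and 0.48.

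The remaining genes of both families were mostly silent. All 9 other Slco genes were under 1 FPKM in both groups and 0 were tested; the highest was Slco4a1, at 0.0467 FPKM in knockout livers and 0.0302 FPKM in wildtype livers. Of 22 other listed Slc22 genes 7 were tested and 0 passed, with a median log2 ratio of -0.03. Slc22a18 was at 89.7 FPKM in knockout and 83.6 FPKM in wildtype livers, Slc22a30 at 28.0 FPKM in knockout and 31.4 FPKM in wildtype livers, Slc22a23 at 16.1 FPKM in knockout and 16.4 FPKM in wildtype livers and Slc22a28 at 2.61 FPKM in knockout and 2.86 FPKM in wildtype livers. Slc22a4, a carrier of ergothioneine, was at 1.79 FPKM in knockout and 1.57 FPKM in wildtype livers and Slc22a15 at 0.884 FPKM in knockout and 0.886 FPKM in wildtype livers. The smallest p belonged to Slc22a3, a low-affinity cation carrier, at 1.08 FPKM in knockout and 1.78 FPKM in wildtype livers (-0.73 ± 0.36, q = 0.889 in the authors' deposited table). The 15 untested ones did not exceed 0.537 FPKM in knockout livers and 0.351 FPKM in wildtype livers.

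Other carriers of the hepatocyte membranes also held no call. Of 17 listed uptake and efflux carriers 12 were tested and 0 passed, 2 had an unadjusted p under 0.05, both lower, and the median was -0.12. Abcc3, an efflux pump of the blood side, had the smallest p, at 48.0 FPKM in knockout and 72.7 FPKM in wildtype livers (-0.60 ± 0.24, q = 0.445 in the authors' deposited table). Slc10a1, the sodium-dependent bile acid carrier, was at 438 FPKM in knockout and 480 FPKM in wildtype livers and Abcb11, the canalicular bile salt pump, at 112 FPKM in knockout and 93.7 FPKM in wildtype livers. Of 3 scaffold proteins of such carriers 0 passed; Slc9a3r1 had the smallest p, at 201 FPKM in knockout and 234 FPKM in wildtype livers, and Pdzk1, known in mice to hold Slco1a1 at the membrane, was at 47.3 FPKM in knockout and 43.9 FPKM in wildtype livers.

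Among 13 tested receptors and factors known for control of transporter genes 0 passed, with a median of -0.02. Nr1i2, which encodes PXR, was at 32.0 FPKM in knockout and 38.8 FPKM in wildtype livers (-0.28 ± 0.23), and Nr1i3, its relative CAR, at 40.1 FPKM in knockout and 54.8 FPKM in wildtype livers (-0.45 ± 0.26). Foxa2, a forkhead factor, had the smallest p, at 15.6 FPKM in knockout and 10.9 FPKM in wildtype livers (0.52 ± 0.24, q = 0.791 in the authors' deposited table). Of 11 tested genes known as targets of PXR and CAR 2 fell and 0 rose. Of their ratios 9 were below 0 and 2 above 0, with a median of -0.44. Over all 11515 tested genes 0.504% were called lower, and the median was 0.00 (-0.0012). Cyp2c55, a cytochrome P450, fell to 4.89 FPKM in knockout livers, against 10.2 FPKM in wildtype livers (-1.06 ± 0.29, q = 0.0224 in the authors' deposited table). Por, the electron donor of the cytochromes P450, fell to 167 FPKM in knockout livers, against 312 FPKM in wildtype livers (-0.90 ± 0.25, q = 0.0401 in the authors' deposited table). The classic targets Cyp2b10 and Cyp3a11 did not pass, at 3.16 FPKM in knockout and 5.42 FPKM in wildtype livers and at 1658 FPKM in knockout and 2039 FPKM in wildtype livers. These lists were chosen with earlier results of the same livers known and are no independent evidence of a direction.

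**Figure D5:**
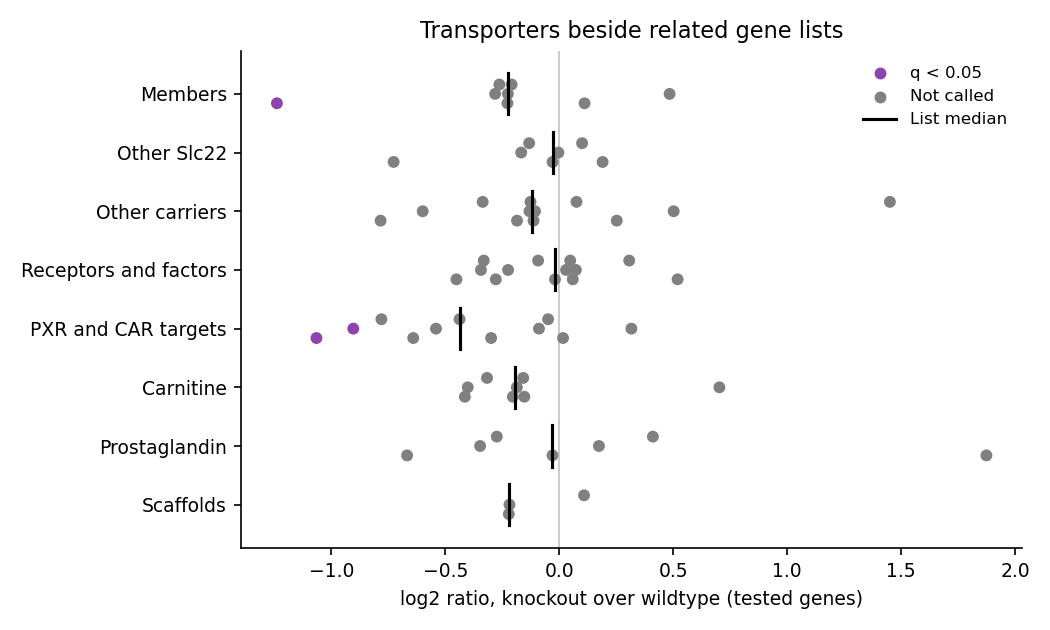
Log2 ratios of knockout over wildtype for the tested genes of the transporter list and 7 related lists; each point is 1 gene, purple where q is under 0.05, and the black bar is the list median. The called points are Slco1a4 among the members and Cyp2c55 and Por among the PXR and CAR targets, and the medians lie between -0.44 and -0.02.

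Markers of inflammation moved between the same groups, where 0.573% of all 11515 tested genes were called higher and 0.504% lower. Of 21 acute phase genes 13 rose and 0 fell, namely Saa1, Saa2, Saa3, Orm1, Orm2, Orm3, Lcn2, Apcs, Lbp, Itih3, Serpina3n, Mt1 and Mt2, and all 21 ratios were above 0 with a median of 1.76. Their FPKM summed to 72155 in knockout livers and 13676 in wildtype livers. Among the markers of neutrophils and monocytes 9 were tested and 4 rose, S100a8, S100a9, Ltf and Ngp, with sums of 112 FPKM in knockout livers and 8.15 FPKM in wildtype livers. Of 11 Kupffer cell and macrophage markers Marco and C1qa rose and all ratios were above 0, with sums of 526 FPKM in knockout livers and 333 FPKM in wildtype livers; 0 of them passed once the group totals were made equal. Of 6 tested cholangiocyte markers Spp1, osteopontin, rose to 142 FPKM in knockout livers, against 62.6 FPKM in wildtype livers, and of 9 stellate cell and fibroblast markers 0 passed, with the smallest p at Reln, an extracellular matrix protein (2.13 FPKM in knockout and 3.43 FPKM in wildtype livers). Of 11 tested hepatocyte markers 0 passed, with a median of -0.07; Tat, tyrosine aminotransferase, had the smallest p, at 769 FPKM in knockout and 1219 FPKM in wildtype livers. Their part in the fall of Slco1a4 was not tested.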

How the data were processed

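Total RNA of 6 livers was sequenced as single 50 nt reads from 1 ug of RNA per library, per the labels' protocols. Bowtie2 and mm10 are named, without versions, per the submitters' processing notes; which program made the tables is not stated in them. The authors deposited 1 value per group and gene, taken as FPKM from the layout of the table (per the file headers, that of a Cuffdiff gene table), with no values per mouse, so replicate spread and depth are unknown. The log2 ratio as deposited has wildtype on top, so its sign was turned round. The deposited test statistic is a score that matches a standard normal z to within 2.63e-06 in its p-value, and the authors' q-value equals the Benjamini-Hochberg adjustment over 11515 tested genes to within 1.99e-06.

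A gene was called at q under 0.05. The SE is the log2 ratio divided by z; it is a model error, and whether libraries vary more between mice cannot be seen. The smallest callable ratio is the SE times 3.46, the z of the weakest call. Medians leave out the 59 tested genes listed at 0 in 1 group. The table holds 0 columns of other series. The limma fit planned for values per library was replaced by the authors' test. The recomputed q was tested on simulated ratios. Their noise was drawn with the same implied SE that the test used, so this checks the computation only and not the spread between mice.

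Members and lists were chosen with earlier results of these data known. Named are all members, the other tested Slco and Slc22 genes (1 item is not reported here and stays out of the list's counts), tested neighbours within 100 kb of a called member, called genes of the other lists or else the one with the smallest p, and some further genes chosen after their values were seen (Slc10a1, Abcb11, Pdzk1, Nr1i2, Nr1i3, Cyp2b10, Cyp3a11, Hpgd, Bbox1, Cyp2a4, the untested family genes and the marker examples). Protein identity came from global alignment (BLOSUM62) of the longest coding transcript of each gene in GENCODE M21, with Biopython 1.88. Python 3.11.15 and SciPy 1.17.1 were used. Starts in the table count from 0 and were raised by 1. Adgre1 is in the table as Emr1; Fcn3 and Ly6g were not matched.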

Additional observations from a re-analysis of the deposited data

How the results depend on the processing

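Slco1a4 stayed called as lower under all 8 alternatives, with log2 ratios between -1.43 and -1.16 and q between 1.08e-06 and 8.33e-05. No other member was called under any of them. All 8 reuse the SE implied by the deposited z, rescaled only for pseudocounts, so none of them probes the spread between mice. The q thresholds of 0.1 and 0.01 were already met by its q of 7.71e-05 in the authors' deposited table. Scaling both groups to the same sum lowered every log2 ratio by the same amount. The listed FPKM summed to 646306 in knockout livers, of which the acute phase list held 72155. In wildtype livers it summed to 564749, of which that list held 13676. Alb entered both totals as 0. With this scaling the median of all tested genes moved to -0.20, and Slco2a1 turned to -0.083. The calls over all genes were then 49 higher and 140 lower, against 66 and 58 as deposited, and the lower calls numbered 32 at q under 0.01. By construction, each member's log2 ratio minus the median of all tested genes is the same with this scaling as without it. For Slco1a4 it is -1.24. With the same-sum scaling the Kupffer list had 0 calls, the male-biased list 0, the female-biased list 1 and the stellate list 1, lower in both of the last. After quantile normalization these were 1 Kupffer call, 0 male-biased and 1 female-biased. At q under 0.1 the Kupffer list had 4, the intestinal list 1 and the female-biased list 1, and at q under 0.01 the Kupffer, male-biased and PXR and CAR lists had 0 each. Causes other than the construction of each setting were not tested. The other 384 comparisons of a result with an alternative kept direction and side of the threshold or stayed within 1.5 times the count. They include those with pseudocounts of 1 and 0.5 FPKM and a minimum mean of 1 FPKM. Some of them could not change, since the kidney tubule and other Slco lists held 0 tested genes. The q thresholds and the minimum mean also left every member's ratio as deposited by construction. The 384 are therefore no measure of stability. Leaving out single mice was not run, since values per mouse were not used here. No paired analysis was possible because the tables hold 1 value per group and the animal numbers are not shared between groups.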
